A study of Mus musculus with 4 samples.

Results

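The mitochondrial ribosome (mitoribosome) is built from proteins encoded in the nucleus, and 78 mouse genes whose symbols begin with Mrpl or Mrps and a digit carry its protein names. They were taken from the 21887 protein-coding RefSeq genes on chromosomes 1 to 19, X and Y, and were examined for occupancy by MED1, which belongs to Mediator, the complex between transcription factors and RNA polymerase II. By their established universal names, 51 encode proteins of the large subunit and 26 of the small subunit. The remaining gene, Mrps36, encodes a protein now known as a component of 2-oxoglutarate dehydrogenase. MED1 ChIP-seq had been carried out in RAW 264.7 cells, a mouse macrophage-like tumour line, after 2 h of lipopolysaccharide (LPS; 2 libraries) and without treatment (2 libraries). The sample labels state 10 ng/mL LPS and the treatment protocol states 100 ng/mL. A single list of intervals was deposited for the 4 libraries, without heights, significance or the name of a condition, so LPS-stimulated and untreated cells were not compared, depth is unknown, and no difference below could be tested over replicates. Comparisons are counts, shares and medians over genes, set beside those of all or of all other protein-coding genes.

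Mitoribosomes translate the few proteins that the mitochondrial genome encodes, all of them core subunits of the respiratory chain and ATP synthase. Each of their proteins is made in the cytosol and imported, so a mitoribosome depends on the coordinated activity of many scattered nuclear genes. Factors such as NRF1, the ETS protein GABP and YY1 are known to act at promoters of nuclear genes for mitochondrial proteins.

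A MED1 region is a run of deposited intervals that abut and were joined. A gene counted as having a region at an end when a region overlapped the window from 1 kb before to 1 kb after either end of the annotated gene. Strand was known for 69 mitoribosomal genes through the RefSeq promoter table. For those genes, the transcription start could be told apart from the other end. The 9 genes without an entry are Mrpl15, Mrps28, Mrpl19, Mrps35, Mrpl4, Mrpl54, Mrpl38, Mrpl13 and Mrps34.

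The promoters below are shown because they cover the motif types described later, genes that share a region with another mitochondrial gene, and the genes without a MED1 region at any listed start. Each window runs 5′ to 3′ on the gene's own strand, from 250 bases before the RefSeq start to 50 bases from it on, in GRCm38.p6, the assembly named mm10. Capitals mark matches on either strand to the NRF1 word (GCGCA and GCGC with any 1 base between them), the ETS word CCGGAAG or the YY1 word AAGATGG, whose long form continues with CGG. Mrpl12 encodes the stalk protein that contacts translation factors, and its window holds an NRF1 match. Mrpl45, for a protein at the exit of the peptide tunnel beside the inner membrane, holds several. Mrpl58 encodes a peptidyl-tRNA hydrolase built into the large subunit and has a pair of ETS matches. Mrps18a has an ETS and a long YY1 match. Mrps11 starts head to head with Mrpl46, and Mrps12 with the seryl-tRNA synthetase gene Sars2. Mrpl14 and Mrps24 are the genes without a region at a listed start.
Mrpl12 (chr11:120484387-120484686, plus strand): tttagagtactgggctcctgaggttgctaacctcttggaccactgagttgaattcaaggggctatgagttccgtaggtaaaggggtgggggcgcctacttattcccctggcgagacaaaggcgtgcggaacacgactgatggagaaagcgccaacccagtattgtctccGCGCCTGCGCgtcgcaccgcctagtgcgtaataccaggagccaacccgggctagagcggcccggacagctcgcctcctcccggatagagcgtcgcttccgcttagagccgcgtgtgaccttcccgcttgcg
Mrpl45 (chr11:97315466-97315765, plus strand): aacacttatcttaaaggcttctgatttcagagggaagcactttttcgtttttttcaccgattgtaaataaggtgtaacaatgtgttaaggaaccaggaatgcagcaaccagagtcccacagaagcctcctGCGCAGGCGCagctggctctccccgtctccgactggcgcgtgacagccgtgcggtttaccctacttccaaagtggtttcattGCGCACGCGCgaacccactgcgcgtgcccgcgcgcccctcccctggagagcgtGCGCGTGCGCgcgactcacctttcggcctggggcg
Mrpl58 (chr11:115403502-115403801, plus strand): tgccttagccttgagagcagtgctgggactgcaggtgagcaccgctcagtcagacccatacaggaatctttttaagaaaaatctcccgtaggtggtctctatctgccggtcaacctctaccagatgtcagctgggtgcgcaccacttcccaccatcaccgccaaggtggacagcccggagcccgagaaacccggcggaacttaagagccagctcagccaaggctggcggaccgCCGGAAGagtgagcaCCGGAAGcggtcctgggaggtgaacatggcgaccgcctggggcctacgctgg
Mrps18a (chr17:46110754-46111053, plus strand): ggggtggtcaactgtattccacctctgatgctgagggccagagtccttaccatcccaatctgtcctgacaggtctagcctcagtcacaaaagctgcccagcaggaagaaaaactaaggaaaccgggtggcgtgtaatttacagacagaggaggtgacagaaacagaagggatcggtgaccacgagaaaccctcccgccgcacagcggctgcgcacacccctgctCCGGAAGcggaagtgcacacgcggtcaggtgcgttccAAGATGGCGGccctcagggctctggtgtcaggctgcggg
Mrps11 (chr7:78782881-78783180, plus strand): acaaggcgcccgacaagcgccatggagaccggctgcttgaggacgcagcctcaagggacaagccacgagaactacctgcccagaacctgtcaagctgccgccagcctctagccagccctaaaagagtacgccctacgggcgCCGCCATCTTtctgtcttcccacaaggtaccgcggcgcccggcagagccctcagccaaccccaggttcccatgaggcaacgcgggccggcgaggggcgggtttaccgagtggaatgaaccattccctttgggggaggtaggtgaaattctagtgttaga
Mrps12 (chr7:28741772-28742071, minus strand): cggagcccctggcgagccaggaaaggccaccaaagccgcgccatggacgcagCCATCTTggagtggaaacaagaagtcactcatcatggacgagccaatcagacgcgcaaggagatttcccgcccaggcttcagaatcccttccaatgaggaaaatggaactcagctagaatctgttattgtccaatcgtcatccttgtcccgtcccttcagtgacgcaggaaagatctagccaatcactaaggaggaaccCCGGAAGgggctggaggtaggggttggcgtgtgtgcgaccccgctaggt
Mrpl14 (chr17:45686099-45686398, plus strand): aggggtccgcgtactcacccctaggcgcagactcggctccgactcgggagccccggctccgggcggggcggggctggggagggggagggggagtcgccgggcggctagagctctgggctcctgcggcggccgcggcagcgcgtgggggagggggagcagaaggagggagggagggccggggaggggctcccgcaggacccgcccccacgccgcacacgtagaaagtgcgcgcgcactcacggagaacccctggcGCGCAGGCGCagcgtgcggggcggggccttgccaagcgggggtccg
Mrps24 (chr11:5707652-5707951, minus strand): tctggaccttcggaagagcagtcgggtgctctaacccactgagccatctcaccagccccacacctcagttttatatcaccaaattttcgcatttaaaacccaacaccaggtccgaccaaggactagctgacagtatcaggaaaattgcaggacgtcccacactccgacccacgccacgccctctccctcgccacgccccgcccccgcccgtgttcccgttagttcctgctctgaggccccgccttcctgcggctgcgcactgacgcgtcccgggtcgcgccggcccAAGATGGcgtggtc

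Nearly all mitoribosomal genes carried MED1 at an end. A region overlapped a gene-end window at 74 of 78 genes (94.9%), against 9895 of 21809 other protein-coding genes (45.4%) and 45.5% of all protein-coding genes. The large subunit contributed 50 of 51 genes (98.0%) and the small subunit 23 of 26 (88.5%). Proteins with a bacterial counterpart and proteins found only in mitochondrial ribosomes had a region at 43 of 46 (93.5%) and 30 of 31 genes (96.8%). Mrps36 also had a region, 1869 bp wide, across its start. By the stricter criterion that the midpoint of the region lie in the window, 63 mitoribosomal genes (80.8%) qualified, against 36.8% of all genes. No test was made of any of these differences, since neighbouring genes share regions and genes are not replicates of a condition.

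Other gene groups reached similar shares. Respiratory chain and ATP synthase genes had a region at an end in 94 of 105 cases (89.5%), and cytosolic ribosomal protein genes in 83 of 91 (91.2%). Macrophage marker genes, which include the lineage factor gene Spi1 and the receptor gene Csf1r, had a region at an end in 10 of 10 cases. Markers of other cell types, such as the hepatocyte gene Alb, did in 0 of 10.

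**Figure D1:**
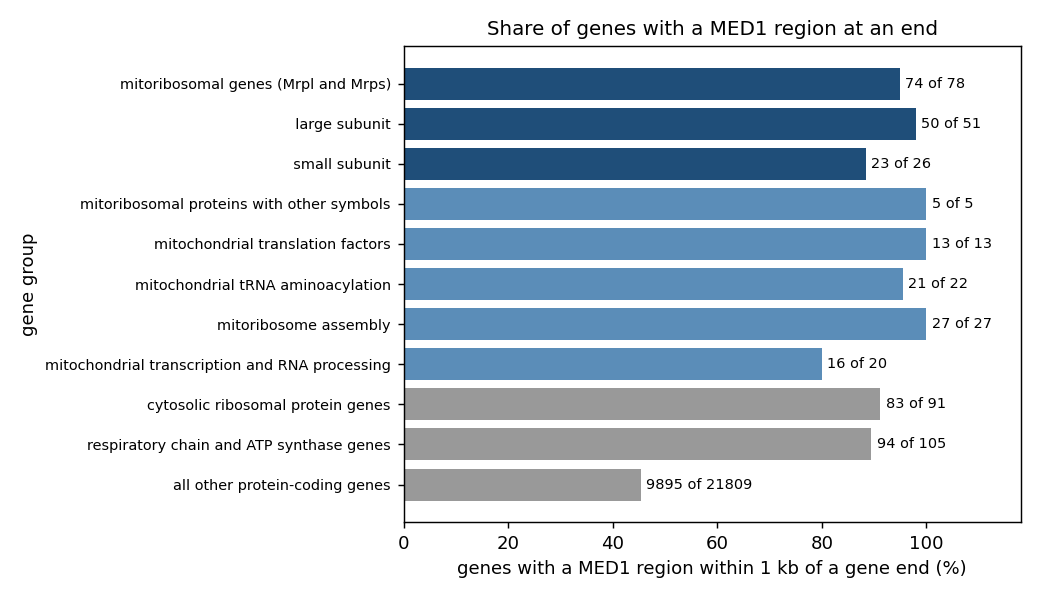
Share of genes (%, horizontal axis) with a MED1 region overlapping 1 kb either side of a gene end, by gene group (vertical axis), with the number of genes beside each bar. Mitoribosomal genes reached 94.9% and the mitochondrial groups under them 80 to 100%, against 45.4% of all other protein-coding genes.

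The regions lay at the beginning of the genes. Among mitoribosomal genes of known strand, 65 of 69 (94.2%) had a region within 1 kb of the outermost annotated start, against 44.4% of all such genes. The share was 90.6% at respiratory chain genes and 88.6% at cytosolic ribosomal protein genes. The other end had a region at 12 mitoribosomal genes (17.4%, against 9.48% of all genes), and no mitoribosomal gene had one only there. That share was 11.8% at respiratory chain genes and 70.0% at cytosolic ribosomal protein genes. At 6 of the 12 mitoribosomal genes a single region overlapped both windows, as at Mrpl53, which is 825 bp long, and Mrpl34, which is 828 bp long. The 6 genes with a separate region at the other end were Mrps21, Mrpl10, Mrpl58, Mrpl36, Mrpl39 and Mrps18b.

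The starts in the promoter table can differ from the outermost start, and how often each is used was not known. The outermost start lay inside the start region at 60 of the 65 mitoribosomal genes with one (92.3%). Over all genes with a start region the share was 89.5%. A start of the promoter table lay inside a region for 67 of 69 mitoribosomal genes (97.1%), against 42.6% of other genes and 42.8% of all genes. Respiratory chain genes reached 92.9% and cytosolic ribosomal protein genes 88.6%. At Mrpl24, Mrpl23, Mrps31, Mrpl22 and Mrpl18 the region began downstream of the outermost start, by 379, 542, 86, 961 and 367 bp, and in each case covered the start of the promoter table. Mrpl22, whose protein lines the peptide exit tunnel, was thus the member closest to the limit of the 1 kb window from the inside.

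Of the 4 genes with no region at an end, 2 had MED1 at an internal start. Mrps2, a small-subunit gene on chromosome 2 (28465951 to 28471177), was the closest from the outside. Its region of 1132 bp began 1712 bp into the gene and covered the start in the promoter table. Mrps23, a mitochondria-specific small-subunit gene on chromosome 11 (88194106 to 88211507), had a region of 2210 bp that began 9094 bp inside the gene and also covered that start. The remaining genes, Mrps24 and Mrpl14, had no region at any listed start.

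Mrps24, on chromosome 11 (5703982 to 5707701), encodes the counterpart of bacterial ribosomal protein S3. The nearest MED1 region lay 29211 bp away. Mrpl14, on chromosome 17 (45685722 to 45698495), encodes the counterpart of bacterial L14, a protein of the subunit interface. Its nearest region was 65254 bp away, so it was the only mitoribosomal gene with 0 region midpoints within 50 kb. Its head-to-head neighbour Tmem63b, a membrane channel gene, also had none at its start. The Mrps24 window printed above holds a short YY1 match and the Mrpl14 window an NRF1 match.

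Regions at mitoribosomal genes varied less in width between their quartiles than those at other genes. The widest region at an end had a median width of 2034.5 bp (quartiles 1681 and 2659.25 bp), against 2317 bp (1615.5 and 3512 bp) at other genes. Cytosolic ribosomal protein genes had a median of 4418 bp and respiratory chain genes 2055 bp. A width above 4000 bp was reached at 6 mitoribosomal genes (8.11% of those with a region), against 19.9% over all genes with a region. At respiratory chain genes the share was 12.8%, and at cytosolic ribosomal protein genes 57.8%. Mitoribosomal genes, with a median length of 7690.5 bp, are themselves shorter than other genes (17224 bp) and longer than cytosolic ribosomal protein genes (3175 bp). The part of gene length in these widths was not tested. Widths ranged from 829 to 20448 bp over the 74 genes. Among the genes without a known strand, Mrpl15 had 1680 bp, Mrps35 2229 bp, Mrps28 2285 bp, Mrpl13 2872 bp and Mrpl54 3085 bp.

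Most regions had the same number of intervals. At 66 of the 74 genes (89.2%) the widest region consisted of 3 abutting intervals, against 93.6% at respiratory chain genes, 83.1% at cytosolic ribosomal protein genes and 77.9% at other genes. It was a single interval at 7 (9.46%, against 15.2%) and joined 5 intervals at Mrpl49 alone (1.35%, against shares with 5 or more of 2.13% at respiratory chain genes, 14.5% at cytosolic ribosomal protein genes and 6.17% at other genes). Counted over all genes, a widest region of several intervals was found at 67 mitoribosomal genes (85.9%), against 38.6% of all protein-coding genes. At the start, 60 of 65 regions had 3 intervals, with a median of 1529 bp for the middle interval, 134.5 bp for the flank upstream and 159 bp for the flank downstream. The outermost start lay inside the middle interval at 55 of these 60 genes (91.7%), against 87.5% at other genes. The 7 genes whose widest region was a single interval were Mrps26, Mrpl19, Mrpl34, Mrpl39, Mrps6, Mrpl28 and Mrpl10. Mrpl19, Mrpl39 and Mrpl10 also had a region of 3 intervals, so Mrps26 (2855 bp), Mrpl34 (2680 bp), Mrps6 (5674 bp) and Mrpl28 (948 bp) were the ones without a region of several intervals. What the boundaries between intervals mark is not given in the sources used here.

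Midpoints of start regions lay a little inside the gene. Their median offset was 111 bp downstream of the outermost start (quartiles -85 and 382 bp), against 146 bp (-172 and 536 bp) at other genes. At cytosolic ribosomal protein genes the median offset was 1202 bp. Mitoribosomal start regions reached, at the median, from -848 to 1015 bp about the start, and those of respiratory chain genes from -809 to 1015 bp. Cytosolic ribosomal protein genes had a similar upstream edge (-1030 bp) and a downstream edge at 3024.5 bp.

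Among large-subunit genes, those for the catalytic core had regions of ordinary size. Mrpl2 and Mrpl3, for proteins near the peptidyl transferase centre, had regions of 1901 and 1464 bp, reaching from -1079 to 821 bp and from -501 to 962 bp about the start. Genes of the stalk, which recruits translation factors, had regions of 1520 bp (Mrpl12), 1520 bp (Mrpl10) and 1635 bp (Mrpl11). Mrpl10 had a second region, a single interval of 2054 bp, at its other end, which also touched an end window of Osbpl7. Mrpl44, whose protein has an RNase III fold, had 1187 bp, and Mrpl45 had 2489 bp. Mrpl58 had 1188 bp at the start and a wider region of 2342 bp at the other end. Mrps30, whose protein sits in the large subunit despite its symbol, had 1684 bp. All of the start regions named in this paragraph consisted of 3 intervals. Over the whole large subunit, 41 of 44 start regions did.

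Among small-subunit genes with a region, widths ranged from 829 to 7533 bp, against 948 to 20448 bp at large-subunit genes. The median was lower, 1870 bp against 2072.5 bp. A width above 4000 bp was found at 3 of 23 small-subunit genes (13.0%) and 3 of 50 large-subunit genes (6.0%). Mrps12, for the protein at the decoding centre, had a region of 1619 bp, and Mrps16 had 1618 bp. Mrps22, for a mitochondria-specific protein whose human gene is mutated in mitochondrial disease, had the narrowest, 829 bp at the start (-470 to 358 bp), with a separate single interval of 674 bp just inside the gene. Mrps34, likewise known from human disease, had 3303 bp over a gene of 1170 bp, in a region that also touched end windows of Eme2, Nme3 and Mapk8ip3. The Mrps18 paralogues divide between the subunits. Mrps18a, of the large subunit, had 2015 bp, and Mrps18c, of the small subunit, had 1915 bp. Mrps18b, also of the small subunit, had 7533 bp.

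Of the 6 genes with the widest regions, 5 shared theirs with another protein-coding gene. Mrpl39 had the widest, a single interval of 20448 bp (chromosome 16, 84698677 to 84719124) at its other end, in addition to 3483 bp at its start. That interval touched no other protein-coding gene end. At Mrpl52, a region of 8355 bp (chromosome 14, 54423276 to 54431630) covered the whole gene and touched an end window of Mmp14, which encodes a membrane-anchored matrix metalloproteinase. The 7533 bp region at Mrps18b (chromosome 17, 35914526 to 35922058) reached upstream to -5618 bp, over the start of Ppp1r10, a gene for a nuclear regulator of protein phosphatase 1. At Mrpl49, 5 intervals made 5963 bp (chromosome 19, 6056910 to 6062872), which reached upstream to -5117 bp and touched end windows of Fau, the gene of a cytosolic ribosomal protein, and of Znhit2 and Tm7sf2. Mrps6 had a single interval of 5674 bp (chromosome 16, 92057084 to 92062757), shared with the inositol transporter gene Slc5a3. Mrps7 had 4204 bp (chromosome 11, 115600968 to 115605171), shared with the trafficking gene Gga3.

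Head-to-head arrangement was frequent. A protein-coding gene on the other strand, with its start within 1 kb and transcribed away, was present for 27 of 69 mitoribosomal genes (39.1%), against 10.3% of all genes of known strand, 14.3% of cytosolic ribosomal protein genes and 34.1% of respiratory chain genes. In 10 of the 27 the annotated genes overlapped at their starts. A single MED1 region overlapped the windows at both starts for 25 of these genes (92.6%). Over all 903 head-to-head pairs of protein-coding genes, 801 pairs (88.7%) shared a region. The first share counts genes and the second counts pairs. The mitoribosomal exceptions were Mrps2 and Mrpl14, which had no region at the outermost start. Since windows around starts within 1 kb of each other overlap, sharing follows largely from having a start region.

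Some partners also serve mitochondria. Mrpl46 and Mrps11, for proteins of the large and the small subunit, start 42 bp apart under a single region of 1770 bp on chromosome 7. Mrps12 and Sars2, which charges mitochondrial serine tRNA, start 136 bp apart under 1619 bp. Mrpl47 and Mrpl36 are paired with Ndufb5 and Ndufs6, subunits of respiratory complex I, at 302 and 21 bp, under regions of 1709 and 2087 bp. Mrpl43 overlaps the start of Twnk, the mitochondrial DNA helicase gene, under 2316 bp (a pair named after its values were seen). Other shared regions covered genes with different roles, such as the proteasome gene Psma2 with Mrpl32 (205 bp apart, 1367 bp region), the condensin gene Ncapd2 with Mrpl51 (100 bp, 3177 bp), the histone chaperone gene Hira with Mrpl40 (113 bp, 2539 bp) and the helicase gene Helq with Mrps18c (98 bp, 1915 bp). The remaining partners under a shared region were Mitd1 (with Mrpl30), Pnpla7 (Mrpl41), Zfp661 (Mrps5), Zfp189 (Mrpl50), Cyb5rl (Mrpl37), Rab6a (Mrpl48), Abhd8 (Mrpl34), Eme1 (Mrpl27), Ptcd2 (Mrps27), Ska3 (Mrpl57), Klc4 (Mrpl2) and Ighmbp2 (Mrpl21), besides Gga3, Ppp1r10 and Fau named above. Counting neighbours in any orientation, 39 of the 74 mitoribosomal genes with a region (52.7%) shared it with an end of another protein-coding gene, against 53.2% of respiratory chain genes, 53.0% of cytosolic ribosomal protein genes and 38.7% of other genes with a region.

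Mitoribosomal promoters were rich in CpG. The ratio of observed to predicted CpG in the 300-base window had a median of 0.818, against 0.829 at respiratory chain genes, 0.851 at cytosolic ribosomal protein genes and 0.574 at other genes, and GC content had a median of 58.3% against 56.3% at other genes. A ratio of 0.6 or more, used here for CpG-rich, was met by 64 of 69 mitoribosomal promoters (92.8%), against 83.5% of respiratory chain, 81.4% of cytosolic ribosomal protein and 48.2% of other promoters. Since 71.4% of all CpG-rich promoters had a start region and 18.9% of the other genes' CpG-poor promoters did, CpG content moved with MED1 over the genome. Within the CpG-rich class, 60 of 64 mitoribosomal genes (93.8%) had a start region. The share was 94.4% of respiratory chain genes, 94.7% of cytosolic ribosomal protein genes and 71.2% of other genes. All these start regions were counted at the outermost start, while the window lies at the listed start closest to it. At Mrps2 and Mrps23, counted as without a start region, a region covered that listed start. The 5 CpG-poor mitoribosomal promoters, with ratios from 0.52 to 0.58, had a start region too. Among CpG-poor promoters, 10 of 14 respiratory chain genes (71.4%) and 8 of 13 cytosolic ribosomal protein genes (61.5%) had one.

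Motif words were searched on both strands of the printed type of window, 1 window per gene. The ETS and NRF1 words and the long YY1 word contain CpG. Promoters were not matched for CpG content, and its part in the shares below was not tested. The ETS word CCGGAAG was present in 24 of 69 mitoribosomal promoters (34.8%), against 11.8% of the other 17423 promoters and 11.9% of all. The NRF1 word was present in 13 (18.8%, against 6.61% of others and 6.66% of all), including 3 with its palindromic form, which has T as the open base (4.35%, against 1.32% and 1.33%). The YY1 word AAGATGG was present in 13 (18.8%, against 6.3% and 6.35%), and in 5 of them continued to its long form (7.25%, against 1.25% and 1.27%). Respiratory chain promoters had the ETS word in 27.1%, the NRF1 word in 21.2% (palindromic form 8.24%) and the YY1 word in 15.3% (long form 7.06%). In cytosolic ribosomal protein promoters the shares were 35.7%, 7.14% (palindromic form 1.43%) and 14.3% (long form 4.29%). At least 1 of these words occurred in 41 mitoribosomal promoters (59.4%), against 22.2% of other promoters, 54.1% of respiratory chain promoters and 50.0% of cytosolic ribosomal protein promoters. Words of more than 1 factor were found in 9 mitoribosomal promoters (13.0%, against 2.48% of other promoters). The share was 9.41% of respiratory chain and 7.14% of cytosolic ribosomal protein promoters.

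Shares of other words lay closer to those of other promoters, or below them. GGGCGG, the core of the SP1 site, was present in 34 (49.3%, against 46.3% of others and 46.3% of all), and the cyclic AMP response element TGACGTCA in 2 (2.9%, against 2.32% and 2.33%). The TATA box word TATAAA was present in 4 (5.8%, against 13.4% and 13.3%). Positions differed between words. Of 28 CCGGAAG matches, 17 began in the 100 bases before the start and 8 after it, with a median of -16.5. NRF1 matches had a median of -43.5. The long YY1 word lay after the start in 4 of 5 promoters. Over all genes, 81.0% of promoters with CCGGAAG, 82.4% with the NRF1 word, 55.2% with the YY1 word and 88.7% with its long form had a start region. The share was 63.2% with the SP1 word, 71.0% with the cyclic AMP response element and 23.0% with TATAAA, against 44.4% of all genes of known strand. Among all genes with a CpG-rich promoter it was 71.4%. Start regions were again counted at the outermost start, which can differ from the listed start used for the window. A match is a description of letters in the window and does not show that a factor binds there.

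In and around the genes, regions were more numerous than at the average gene. The median was 4 region midpoints in the gene or within 50 kb of it, against 2 at other genes, and at least 1 was present for 77 of 78 mitoribosomal genes (98.7%, against 70.6% of all genes). Respiratory chain and cytosolic ribosomal protein genes had the same median of 4. The counts include regions at the gene's own ends, which 94.9% of mitoribosomal and 45.4% of other genes had. Mitoribosomal genes also had slightly more protein-coding neighbours within 50 kb (median 4, against 3 at other genes), and the part of gene density in the counts was not tested.

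**Figure D2:**
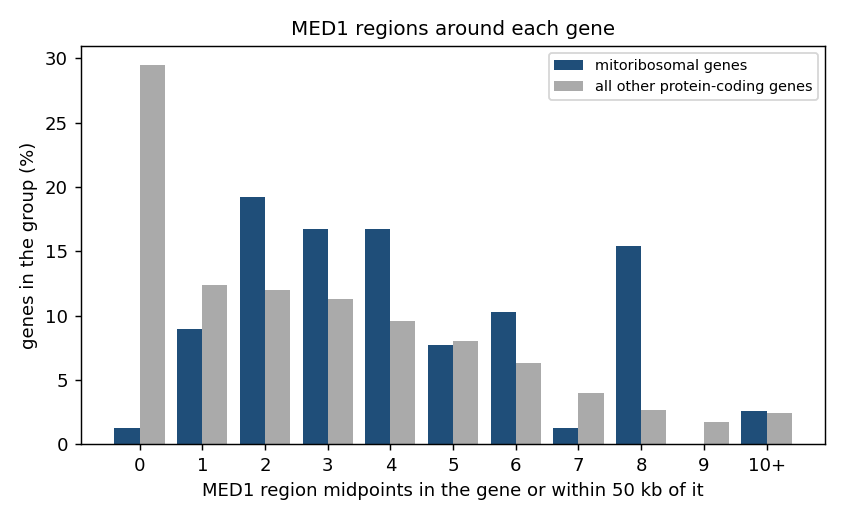
Number of MED1 region midpoints in a gene or within 50 kb of it (horizontal axis) against the share of genes (%, vertical axis), for mitoribosomal genes (dark) and all other protein-coding genes (pale). Only 1 mitoribosomal gene had 0, and 14 (17.9%) had 8 or more, against 6.83% of other genes.

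The highest counts did not all lie among many genes. Mrpl4, whose protein lines the peptide tunnel, and Mrpl38 had 10 each. Mrpl4 (chromosome 9, 21001252 to 21008839) lies beside the adhesion molecule genes Icam1, Icam4 and Icam5, S1pr2 and the DNA methyltransferase gene Dnmt1, all 5 with a region at an end. Its own region was 1875 bp wide. A count of 8 was shared by 12 genes, which are Mrpl2, Mrpl12, Mrpl20, Mrpl33, Mrpl43, Mrpl45, Mrpl48, Mrpl51, Mrpl52, Mrpl53, Mrps7 and Mrps23. Genes with 8 or more regions were 12 of 51 in the large subunit (23.5%) and 2 of 26 in the small subunit (7.69%). Over all genes the share was 6.87%. Mrpl33 and Mrps23 each had only 1 protein-coding neighbour within 50 kb, Rbks with a region at an end and Cuedc1 without one. Mrpl49, with 11 such neighbours, had 6 regions.

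The remaining genes of mitochondrial gene expression also carried MED1 at their ends. Over 5 lists, 82 of the 87 genes found in the annotation (94.3%) had a region at an end, against 45.5% of all genes. Mitoribosomal proteins with other symbols were complete. They are Dap3 (3256 bp), Ptcd3 (2445 bp), Chchd1 (3400 bp), Aurkaip1 (2761 bp) and Gadd45gip1 (2689 bp), each with 3 intervals. Translation factors had a region in 13 of 13 cases, with 1399 bp at the elongation factor gene Tufm and 7839 bp at the initiation factor gene Mtif2. Assembly factors had one in 27 of 27 cases. The widest there was 24528 bp in 9 intervals at Ddx28, a helicase gene, and the GTPase gene Eral1 had 1503 bp. Genes of mitochondrial tRNA aminoacylation had one in 21 of 22 cases. They are aminoacyl-tRNA synthetase genes with Gatb, Gatc and Qrsl1 of the glutamyl-tRNA amidotransferase, and the exception was the alanyl-tRNA synthetase gene Aars2, with a region inside the gene. Mitochondrial transcription and RNA processing genes had one in 16 of 20 cases. The RNA polymerase gene Polrmt had a single interval of 1297 bp, and Tfam, for the DNA-packaging transcription factor, had 3519 bp. Without a region were Grsf1, Mterf2, Mterf1a and Mterf1b. The nearest regions lay 11222, 15836, 33788 and 86100 bp away, and Mterf1a and Mterf1b are close copies of each other.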

How the data were processed

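MED1 ChIP-seq libraries were prepared from cells fixed with DSG and formaldehyde and sequenced as single reads, per the labels' protocols. Per the submitters' processing notes, Bowtie, SAMtools, MACS2 2.2.6 and the build mm10 were used. The sources used here do not give peak-calling settings, any control or pooling. The deposited file holds 53764 intervals with a chromosome, start and end. Its score, as the authors deposited it, is 0 in every line, and 0 columns belong to other samples. No counts were given, so depth and precision per library are unknown.

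The 4 mitochondrial intervals were left out, and abutting intervals were joined into 22570 regions. Gene positions and promoter windows came from RefSeq, GRCm38.p6, with a promoter, and so a strand, for 17492 genes. Where a gene had several listed starts, the window closest to its outermost start was searched for motifs. Coordinates are 1-based. The planned comparison of conditions could not be made. The members, lists, motifs and named genes (members without a region, the widest, those with most regions, paired genes and a fixed set by role) were chosen with earlier results of these data known. Mtrfr, Wbscr16 and Mrpp3 of the lists were not found under those symbols. Some neighbouring and marker genes are not reported here by name. Joining and overlap were tested on simulated data. Python 3.11.15, numpy 2.4.6, pandas 2.3.3 and matplotlib 3.10.9 were used.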

Additional observations from a re-analysis of the deposited data

How the results depend on the processing

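Of 44 alternatives to 15 values, 36 stayed within 1.5 times the reported value. Some of these could hardly move. Counts of genes with a region are the same without joining by construction. A wider window, merging or added starts can only raise them, and they were already close to the number of genes. The number of mitoribosomal genes with a region at an end ranged from 63 to 76 under all alternatives except regions at or above the median width. With those regions only, it was 39 (50.0%, against 28.3% of all genes). The number at the start was 30 of 69, against 26.8% of all genes of known strand. The number of listed genes of mitochondrial gene expression was 45 of 87, beside the same 28.3% of all genes. Without joining, 0 genes had a region of several intervals, by construction, and the median within 50 kb was 9. Within 10 kb the median of joined regions was 1.5, against 1 at other genes. In the last 150 bases before the start and the 50 after, TGACGTCA was present in 1 mitoribosomal promoter (1.45%, against 2.14% of other promoters). TATAAA was present there in 2 (2.9%, against 8.89%). The starts of the promoter table and the width at starts only were added after the data were examined. No paired analysis was possible because the intervals are not assigned to libraries, and for the same reason no library could be left out. Without heights or read depth, strong and weak occupancy could not be told apart.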
